A study of Mus musculus with 9 samples.

Results

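The RNA of 10 genes of the oxygen-sensing pathway was followed in mouse retinas after laser-induced retinal vein occlusion (RVO). The genes were Hif1a, Epas1 and Hif3a, which encode the alpha subunits of the hypoxia-inducible factors (HIF), Arnt and Arnt2, which encode beta subunits, Egln1, Egln2 and Egln3, which encode the HIF prolyl hydroxylases PHD2, PHD1 and PHD3, Hif1an, which encodes the asparaginyl hydroxylase FIH, and Vhl. They were chosen by gene symbol from 48587 genes of the count table, and all 10 were found in it. The retinas came from C57BL/6J mice that were 12 weeks old. In RVO eyes all veins had been occluded by laser after an intraperitoneal injection of the photosensitizer eosin Y, under ketamine and xylazine. The fellow eyes of these mice served as control and received the same number of laser spots between the large vessels, so that they shared the eosin Y, the anesthesia and the tissue damage by laser, but not the occlusion. Both kinds of eyes were taken at day 2, and untreated eyes came from other mice without laser treatment. Each sample was a pool of 6 retinas from 6 mice, there were 3 pools per group, and n counts pools. The samples hold all cell types of the retina together, and all markers listed for rods, Mueller glia, endothelium and microglia were detected in each group.

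In the presence of oxygen the prolyl hydroxylases modify the HIF alpha subunits, the product of Vhl then binds them as substrate receptor of a ubiquitin ligase, and the subunits are degraded, while FIH blocks their binding of coactivators. When oxygen is low, the alpha subunits are stable, pair with ARNT or ARNT2 and activate genes of glycolysis, angiogenesis and vasomotor control. Egln3 and Egln1 are themselves known as genes induced by HIF, which closes a feedback loop, whereas Egln2 is not known for that. Much of this control acts on the proteins, which read counts of mRNA do not measure.

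To show what lies in front of the genes that the results turn on, RefSeq promoter windows (build GRCm38.p6) from 250 bases before to 50 bases after the start were searched for the core letters of the hypoxia response element, ACGTG or GCGTG, on both strands, so that CACGT and CACGC also count and the palindrome CACGTG counts on each strand. Windows were found for 9 of the 10 genes, with 2 for Egln2, and Epas1 had none. The letters occurred in 7 of these 10 windows, which belong to 6 genes. The windows of Arnt2, Hif1an and Vhl held no match. Of all 32544 promoter windows, 44.0% held at least 1 match, 20.8% at least 2 and 8.99% at least 3. The window of Egln3 (chr12:54203825-54204124, minus strand) held 1 match, that of Egln1 (chr8:124949205-124949504, minus strand) held 2, the upstream window of Egln2 (chr7:27166753-27167052, minus strand) held 6 and that of Hif3a (chr7:17062378-17062677, minus strand) held 2. The sequences are given 5′ to 3′ in the direction of the gene, with matches in capitals.
Egln3: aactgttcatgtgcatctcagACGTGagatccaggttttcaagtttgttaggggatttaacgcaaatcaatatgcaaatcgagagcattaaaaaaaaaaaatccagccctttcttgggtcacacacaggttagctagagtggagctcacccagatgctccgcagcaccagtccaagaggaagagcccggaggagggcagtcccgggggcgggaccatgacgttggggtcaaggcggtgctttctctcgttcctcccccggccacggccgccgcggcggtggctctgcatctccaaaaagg
Egln1: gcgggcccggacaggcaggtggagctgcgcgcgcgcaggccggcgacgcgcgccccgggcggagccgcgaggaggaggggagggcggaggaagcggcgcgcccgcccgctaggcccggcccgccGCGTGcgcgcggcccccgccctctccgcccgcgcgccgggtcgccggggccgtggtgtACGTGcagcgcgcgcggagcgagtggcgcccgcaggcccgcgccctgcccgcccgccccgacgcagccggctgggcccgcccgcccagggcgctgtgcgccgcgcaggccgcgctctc
Egln2: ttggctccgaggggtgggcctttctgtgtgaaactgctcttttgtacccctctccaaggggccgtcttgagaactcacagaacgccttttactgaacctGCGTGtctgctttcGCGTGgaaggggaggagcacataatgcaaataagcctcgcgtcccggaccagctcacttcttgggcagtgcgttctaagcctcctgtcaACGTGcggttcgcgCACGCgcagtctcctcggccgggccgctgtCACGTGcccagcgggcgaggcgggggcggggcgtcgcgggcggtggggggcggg
Hif3a: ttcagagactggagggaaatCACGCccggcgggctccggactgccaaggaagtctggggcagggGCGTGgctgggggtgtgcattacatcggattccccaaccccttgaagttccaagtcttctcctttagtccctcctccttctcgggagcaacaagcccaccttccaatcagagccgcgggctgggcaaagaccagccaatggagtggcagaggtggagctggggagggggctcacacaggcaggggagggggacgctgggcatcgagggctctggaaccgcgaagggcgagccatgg
The 6 matches of Egln2 include the palindrome next to the start of the gene, and the single match of Egln3 began at position -229 from the start. A match describes letters in the window and no measured binding.

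Values are given as normalised counts in CPM, the reads of a gene per 1e6 reads of its sample after scaling by TMM factors. The untreated samples were the shallowest with total counts of 12377572 to 15245869, against 18897218 to 23419497 for control and 21022997 to 28993921 for RVO samples, so that genes of low expression were measured least precisely in untreated eyes. Differences were tested with edgeR's quasi-likelihood test over all genes, and a gene was called higher or lower where its p, adjusted by Benjamini and Hochberg's method, was under 0.01. RVO replicate 2 stood apart, since chi-square divided by its degrees of freedom was 54.1 and 29.3 against the other RVO samples and 9.01 between those. Fold changes against untreated samples followed the GC content of the genes. The median log2 fold change of the fifth of genes with the lowest GC content was -0.51 in RVO and -0.46 in control samples, and that of the fifth with the highest GC content was 0.54 and 0.52. Between RVO and control samples these medians stayed between -0.05 and 0.05. As the trend was seen in both comparisons with the untreated group, group and library preparation cannot be told apart for it. Values after removal of GC and length trends are given beside the results that they change. Scaling by library size alone moved the median log2 change over all genes to 0.22 for RVO and 0.19 for control against untreated samples, and the changes of single genes under that scaling are to be read against these shifts.

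All 3 prolyl hydroxylases were higher and 2 of the 3 alpha subunits lower in RVO eyes than in untreated eyes. After removal of GC and length trends, Egln3 was the 1 gene of the 10 still called higher, where 3245 of 16380 genes were. Epas1 was then called lower along with Hif1a and Hif3a, 3 of 10, where 4015 of 16380 genes were. In RVO against control eyes Egln3 was called and the other 9 genes were not. Between RVO and untreated samples, 5 of the 10 genes were called higher, namely Egln1, Egln2, Egln3, Hif1an and Vhl, where 27.4% of all tested genes were. Hif1a and Hif3a were called lower, 2 of 10, close to the 24.6% of all tested genes. The groups did not overlap for 8 of the 10 genes and for 73.4% of all genes. Control laser treatment alone gave 2 genes called higher, Egln2 and Hif1an, against 27.2% of all genes, and 2 called lower, Hif1a and Hif3a, against 25.2%, with no overlap of groups for 6 of the 10 genes against 70%. Between RVO and control samples, 1 of the 10 genes was called higher against 2.7% of all genes, and 0 lower against 0.634% (edgeR). At an unadjusted p under 0.05, 4 were higher and 3 (Hif1a, Hif3a and Arnt2) lower, where 7940 of 16874 genes passed in either direction. DESeq2 called 2 higher and 0 lower, where it called 1840 of 18780 genes higher and 2116 lower. At an adjusted p under 0.05, 4 genes (Egln1, Egln2, Egln3 and Vhl) were higher against 17.5% of all genes, and Hif3a was lower, 1 of 10, against 17.1%. The groups did not overlap for 6 of the 10 genes and for 52.5% of all genes. The median log2 fold change of the 10 genes was 0.21, 0.12 and 0.10 in these comparisons, that of all tested genes 0.01, 0.01 and 0.02. All 10 genes passed the filter on low counts. The comparisons with untreated eyes share the same 3 untreated samples.

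**Figure D1:**
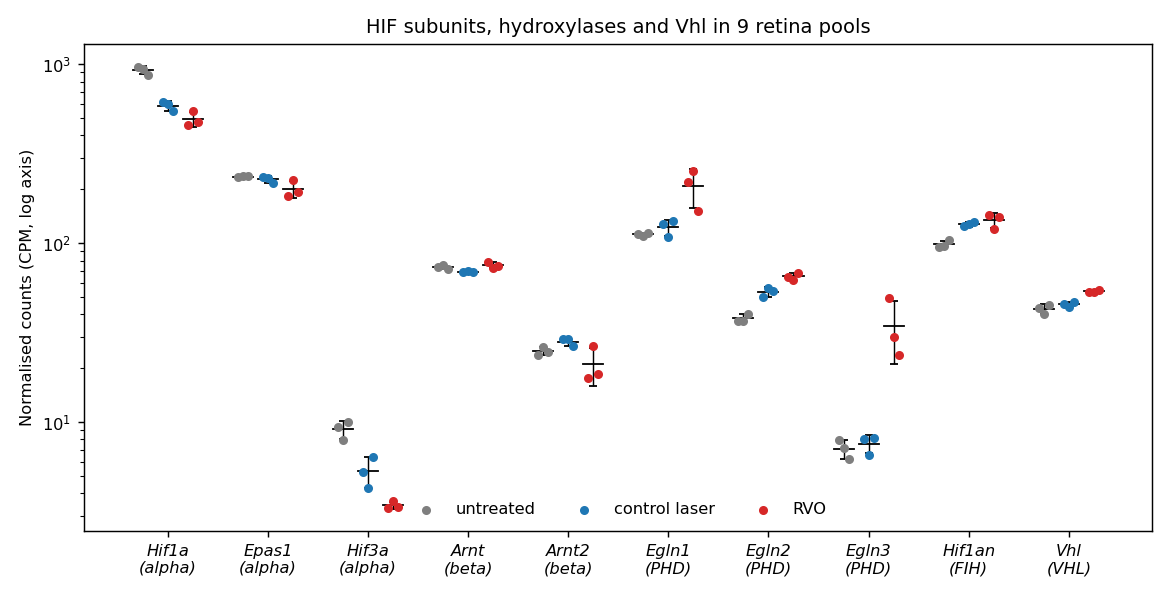
Normalised counts (CPM, log axis) of the 10 genes in untreated (grey), control laser-treated (blue) and RVO (red) samples. Each point is a pool of 6 retinas, and bars show mean and SD of 3 pools; Hif1a and Hif3a fall from untreated to RVO eyes, and the 3 RVO samples of Egln3 (23.8 to 49.1 CPM) lie apart from all others (6.21 to 8.20 CPM).

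Among the alpha subunits, Hif1a (chr12:73901375-73947530, plus strand, build GRCm38 as all positions here), the broadly expressed subunit, fell in all laser-treated eyes. Its normalised counts were 970.2, 936.5 and 874 CPM in untreated, 618, 598 and 545 CPM in control and 457, 548 and 478 CPM in RVO samples. All laser-treated samples were below all untreated samples, and RVO replicate 2 lay just above the lowest control sample. The change on the log2 scale was -0.88 ± 0.085 (SE) in RVO (edgeR, adjusted p = 7.2e-05) and -0.64 ± 0.066 in control eyes (adjusted p = 3.48e-06), each against untreated eyes. Compared with control eyes, RVO eyes had a change of -0.25, with a 95% interval from -0.45 to -0.04 and an adjusted p of 0.0639. Without RVO replicate 2, Hif1a was called lower (-0.34, edgeR adjusted p = 0.00448). That fit called 3315 of 17199 genes lower, against 107 of 16874 in the main fit. Hif1a has the lowest GC content of the 10 genes (41.3%), and after removal of the GC and length trends its fold changes against untreated eyes were -0.48 and -0.31, both still called (adjusted p = 0.000301 and 0.000444).

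Hif1a fell together with the markers of rods, the most numerous cells of the mouse retina. The summed level of 10 rod markers was 91240 to 92910 CPM in untreated, 58380 to 70990 CPM in control and 48200 to 52070 CPM in RVO samples, and 10 of 10 rod markers were called lower in RVO and 7 of 10 in control eyes than in untreated eyes. Per 1000 CPM of rod markers, a ratio chosen after the values were seen, Hif1a had 10.05 ± 0.569 CPM in untreated, 9.03 ± 1.29 CPM in control and 9.86 ± 0.687 CPM in RVO samples (SD, n = 3), and these ranges overlapped. This ratio is not corrected for GC content, and no other cell type was used as denominator. In whole retinas fewer cells of a type and less RNA per cell cannot be told apart, and the part of the rods in the change of Hif1a was not tested.

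Epas1 (chr17:86753700-86833410, plus strand), which encodes HIF-2 alpha, a subunit prominent in endothelium, was not called in any comparison. Normalised counts were 233, 237 and 236.5 CPM in untreated, 234, 232.5 and 216 CPM in control and 184.5, 226.5 and 194 CPM in RVO samples. The RVO samples lay below all untreated samples but overlapped with the control samples. The log2 fold change was -0.19 (95% interval -0.38 to -0.0015, edgeR adjusted p = 0.0696) in RVO and -0.03 (adjusted p = 0.606) in control eyes against untreated eyes, and -0.17 (adjusted p = 0.163) for RVO against control. These values depended on scaling, since with library size alone the first was 0.02 and the second 0.14, while removal of GC and length trends gave -0.49 and -0.31, both called lower (adjusted p = 0.000825 and 0.000233). Without RVO replicate 2, Epas1 was called lower against untreated eyes (-0.27, edgeR adjusted p = 0.00183) and control eyes (-0.28, adjusted p = 0.00569). These fits called 5055 of 16300 and 3315 of 17199 genes lower, against 4037 of 16380 and 107 of 16874 in the main fits. The summed level of 10 endothelial markers was 171 to 176 CPM in untreated, 328 to 366 CPM in control and 163 to 282 CPM in RVO samples, and its part in the values of Epas1 was not tested.

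The balance of Epas1 and Hif1a within each sample was compared next. The ratio of Epas1 to Hif1a, each as CPM per kilobase of exon, was 0.254, 0.267 and 0.285 in untreated, 0.399, 0.410 and 0.417 in control and 0.426, 0.436 and 0.429 in RVO samples. The ratio was highest in RVO samples and lowest in untreated samples, and no groups overlapped. The log2 ratio differed by 0.68 between RVO and untreated, by 0.61 between control and untreated and by 0.07 between RVO and control samples, each with p = 0.1 in an exact two-sided permutation test, the smallest p that 3 against 3 samples allow. The ratio is not corrected for GC content, and after removal of GC and length trends Epas1 and Hif1a had like log2 fold changes against untreated eyes, -0.49 and -0.48 in RVO and -0.31 and -0.31 in control eyes, so that the difference of the ratio from untreated samples was not seen with that correction.

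Hif3a (chr7:17031507-17062427, minus strand) encodes a subunit with splice forms that can inhibit HIF, and counts per gene do not separate these forms. It was the least abundant of the 10 genes per length, with 76 to 152 reads per sample. Normalised counts were 9.35, 7.97 and 10.07 CPM in untreated, 5.29, 4.29 and 6.36 CPM in control and 3.31, 3.61 and 3.34 CPM in RVO samples. The groups formed 3 separate steps without overlap. The log2 fold change was -1.38 ± 0.16 in RVO (edgeR, adjusted p = 0.000156) and -0.76 ± 0.16 in control eyes (adjusted p = 0.00099) against untreated eyes. For RVO against control eyes it was -0.64 with an adjusted p of 0.0312, which was not called. Per 1000 CPM of rod markers, without correction for GC content, Hif3a had 0.0990 ± 0.0107 CPM in untreated, 0.0805 ± 0.0082 CPM in control and 0.0683 ± 0.0018 CPM in RVO samples (SD, n = 3).

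Neither beta subunit was called in any comparison. Arnt (chr3:95434388-95497240, plus strand), the general partner of the alpha subunits, had 74.0, 75.9 and 71.7 CPM in untreated, 68.7, 69.8 and 69.3 CPM in control and 78.4, 72.7 and 74.6 CPM in RVO samples. The control samples were the lowest, and all samples lay between 68.7 and 78.4 CPM. The log2 fold change of Arnt was 0.06 (95% interval -0.10 to 0.22) in RVO and -0.07 (-0.19 to 0.04) in control eyes against untreated eyes and 0.12 (-0.02 to 0.26) in RVO against control eyes, and none was called (edgeR, adjusted p = 0.485, 0.234 and 0.15). With library size alone the second of these values was 0.10.

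Arnt2 (chr7:84246278-84410176, minus strand), the partner known from neurons, had 23.8, 26.3 and 24.7 CPM in untreated, 29.1, 29 and 26.5 CPM in control and 17.6, 26.8 and 18.7 CPM in RVO samples. RVO replicates 1 and 3 were below all other samples, while RVO replicate 2 lay among the control samples. The log2 fold change of Arnt2 was -0.22 (edgeR, adjusted p = 0.259) in RVO and 0.20 (adjusted p = 0.0474) in control against untreated eyes and -0.42 (95% interval -0.79 to -0.06, adjusted p = 0.072) in RVO against control eyes. Without RVO replicate 2, Arnt2 was called lower in RVO eyes, both against untreated eyes (-0.41, edgeR adjusted p = 0.00168) and against control eyes (-0.65, adjusted p = 0.000189). These fits called 5055 of 16300 and 3315 of 17199 genes lower, against 4037 of 16380 and 107 of 16874 in the main fits. With library size alone, Arnt2 was called higher in control than in untreated eyes (0.37, adjusted p = 0.00187), and after removal of GC and length trends this value was -0.01.

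**Figure D2:**
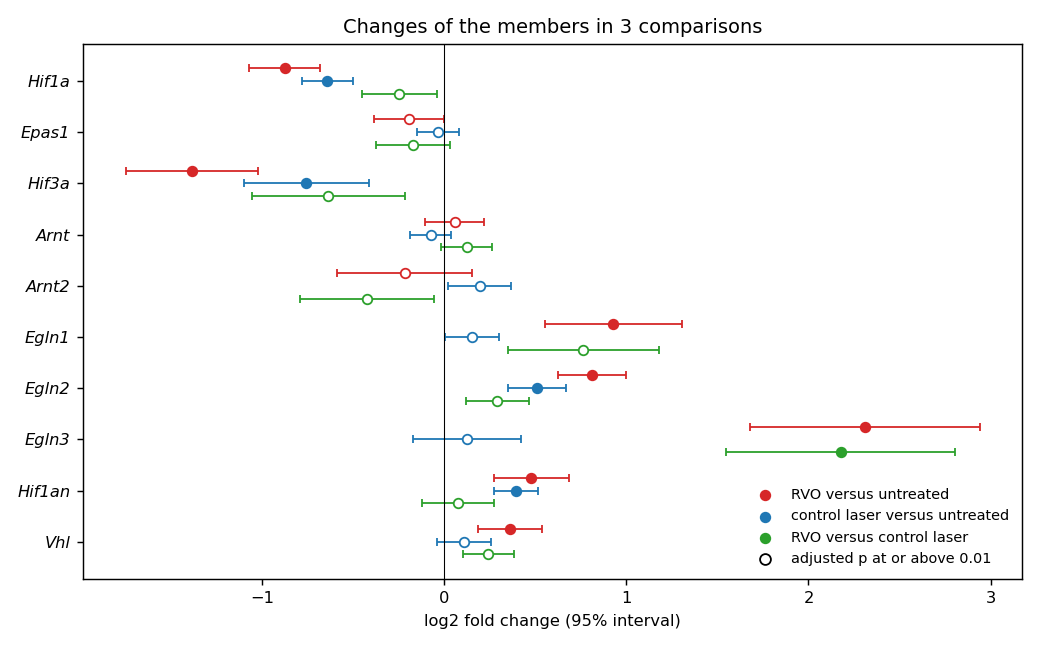
Log2 fold changes of the 10 genes with 95% intervals for RVO versus untreated (red), control laser versus untreated (blue) and RVO versus control laser (green). Filled points have an adjusted p under 0.01 in edgeR's quasi-likelihood test; Egln3 is the only filled point for RVO versus control laser (2.18), while Hif1a and Hif3a are filled for both comparisons with untreated eyes.

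Of the prolyl hydroxylases, Egln3 had the largest fold change in RVO eyes against both other groups. Egln3 (chr12:54178981-54203860, minus strand), which encodes PHD3, had 7.90, 7.19 and 6.21 CPM in untreated, 8.005, 6.57 and 8.20 CPM in control and 49.1, 29.9 and 23.8 CPM in RVO samples. In reads these were 87 to 92 per untreated, 130 to 196 per control and 542 to 1540 per RVO sample. Untreated and control samples overlapped, and every RVO sample was far above both. In RVO eyes Egln3 was higher than in untreated eyes by 4.96-fold (log2 2.31 ± 0.27, edgeR adjusted p = 0.000187) and than in control eyes by 4.52-fold (log2 2.18 ± 0.27, 95% interval 1.55 to 2.81, adjusted p = 0.00746). Its change by control laser treatment was 0.12 (95% interval -0.17 to 0.42, adjusted p = 0.443), and -0.10 after removal of GC and length trends.

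The call of Egln3 between RVO and control eyes depended on single samples. Leaving out 1 sample at a time gave log2 fold changes between 1.81 and 2.37, all in the same direction. The adjusted p was 0.0265 without RVO replicate 3, 0.0449 without control replicate 1, 0.0235 without control replicate 2 and 0.0538 without control replicate 3. In these 4 fits the number of all genes called higher was 1 without control replicate 1 and 0 in the others, while 6100 to 6916 genes had an unadjusted p under 0.05. With the replicate number as a block, Egln3 was not called either, and 0 genes of the whole table were. The labels do not tie these numbers to the same mice.

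Egln1 (chr8:124908587-124949324, minus strand), which encodes PHD2, the main oxygen sensor of the family, had 112, 109.5 and 114 CPM in untreated, 127, 109 and 133 CPM in control and 221, 253 and 152 CPM in RVO samples. All RVO samples lay above all others, with RVO replicate 3 the closest to them. The level of Egln1 in RVO eyes was 1.90 times that in untreated eyes (log2 0.93 ± 0.16, edgeR adjusted p = 0.00131). It was 1.70 times that in control eyes (log2 0.76, 95% interval 0.35 to 1.18), where the adjusted p of 0.018 was not under the threshold, whereas without a filter on low counts, in 1 fit of all 9 samples and with DESeq2 it was (adjusted p = 0.00374, 0.00386 and 0.00062). Over all genes, these settings called 1569 of 29742, 1832 of 17112 and 1840 of 18780 higher, against 456 of 16874 in the main fit. Against untreated eyes, removal of the GC and length trends left 0.37 (adjusted p = 0.0745), which was not called, and turned the value of control eyes from 0.15 (adjusted p = 0.062) to -0.34 (adjusted p = 0.000861).

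Egln2 (chr7:27158658-27166802, minus strand), which encodes PHD1, was called higher in both RVO and control eyes than in untreated eyes. It had 37.0, 36.6 and 40.4 CPM in untreated, 49.9, 56.3 and 53.9 CPM in control and 65.0, 62.2 and 68.5 CPM in RVO samples. No groups overlapped. On the log2 scale the change was 0.81 ± 0.080 in RVO (1.76-fold, edgeR adjusted p = 8.02e-05) and 0.51 ± 0.073 in control eyes (1.42-fold, adjusted p = 5.39e-05) against untreated eyes and 0.29 ± 0.074 in RVO against control eyes (1.22-fold, adjusted p = 0.0226). Egln2 has the highest GC content of the 10 genes (62.2%), and without the GC and length trends its values against untreated eyes were 0.09 (adjusted p = 0.439) in RVO and -0.27 (adjusted p = 0.00439, called lower) in control eyes. The difference between RVO and control eyes was then 0.37 (adjusted p = 0.0196).

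Egln3 had a larger share of the prolyl hydroxylase RNA in RVO samples than in all others. Added up per length, the 3 genes had 47.3, 46.2 and 48.5 CPM per kilobase in untreated, 56.3, 52.8 and 59.3 in control and 103, 104 and 75.6 in RVO samples. The share of Egln3 in this sum was 6.27%, 5.84% and 4.81% in untreated, 5.35%, 4.67% and 5.20% in control and 17.9%, 10.8% and 11.8% in RVO samples. Each RVO sample was above every other sample in both measures. The sum is not corrected for GC content, and against untreated eyes the log2 changes of Egln1 and Egln2 without GC and length trends were 0.37 and 0.09 in RVO and -0.34 and -0.27 in control eyes. The share was higher by 7.87 percentage points in RVO than in untreated and by 8.44 percentage points than in control samples (p = 0.1 each in an exact two-sided permutation test, the smallest possible p), and that of control and untreated samples differed by -0.57 percentage points (p = 0.3). Egln1 made up 55.8% to 67.8% of the sum in every sample.

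**Figure D3:**
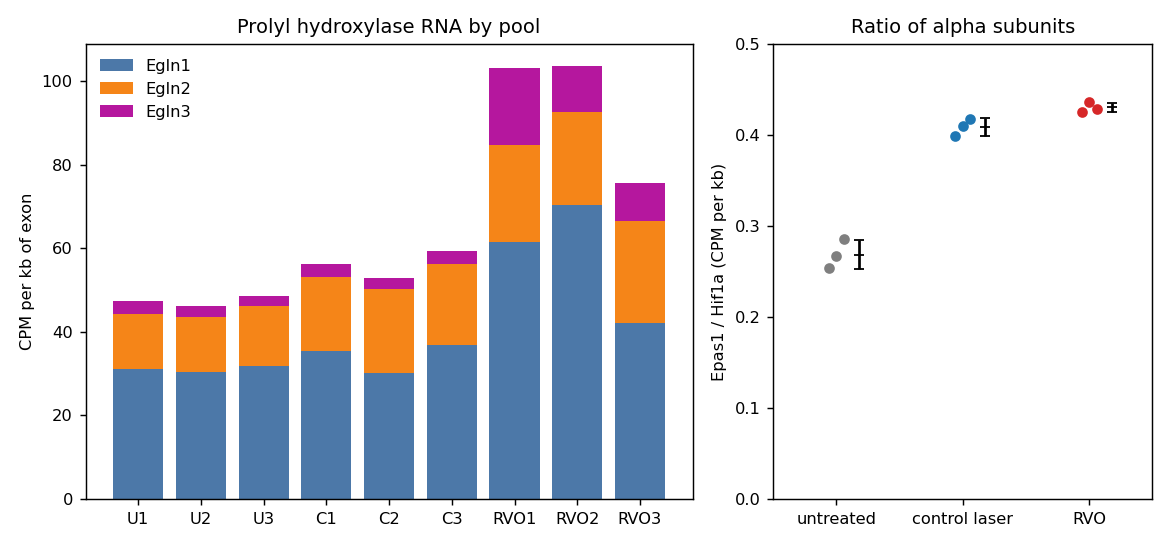
Left, summed level of Egln1, Egln2 and Egln3 RNA in CPM per kilobase of exon for each untreated (U), control (C) and RVO sample. Right, ratio of Epas1 to Hif1a per length in each sample with mean and SD; the sum is 46.2 to 59.3 CPM per kilobase in untreated and control and 75.6 to 104 in RVO samples, and the ratio, not corrected for GC content, is lowest in untreated samples, a difference not seen after removal of GC and length trends.

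Hif1an (chr19:44562850-44576274, plus strand), which encodes FIH, had 94.98, 96.5 and 104 CPM in untreated, 124, 128 and 132 CPM in control and 144, 119.5 and 139 CPM in RVO samples. All laser-treated samples were above all untreated samples, and RVO and control samples overlapped. The log2 value was 0.48 ± 0.089 in RVO (edgeR, adjusted p = 0.00177) and 0.39 ± 0.056 in control eyes (adjusted p = 4.85e-05) against untreated eyes and 0.08 (95% interval -0.12 to 0.27, adjusted p = 0.514) in RVO against control eyes. Without the GC and length trends it was 0.29 (adjusted p = 0.0293) in RVO and 0.20 (adjusted p = 0.00442) in control eyes. The call in RVO eyes was also lost without untreated replicate 1 (adjusted p = 0.0125) or 2 (adjusted p = 0.0135).

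Vhl (chr6:113623959-113631633, plus strand) had 43.5, 40.1 and 45.1 CPM in untreated, 45.9, 44.3 and 46.9 CPM in control and 53.6, 53.5 and 54.8 CPM in RVO samples. The RVO samples were close to each other and above all others, and control and untreated samples overlapped. RVO eyes had 1.29 times the level of untreated eyes (log2 0.36 ± 0.077, edgeR adjusted p = 0.00342) and 1.18 times that of control eyes (log2 0.24 ± 0.059, adjusted p = 0.0207, not called). The value of control against untreated eyes was 0.11 (adjusted p = 0.177), and it was called with library size alone (0.28, adjusted p = 0.00309). The call against untreated eyes was lost after removal of GC and length trends (0.17, adjusted p = 0.0852) and without RVO replicate 3 (adjusted p = 0.0149), untreated replicate 1 (adjusted p = 0.0141) or untreated replicate 2 (adjusted p = 0.0245).

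**Figure D4:**
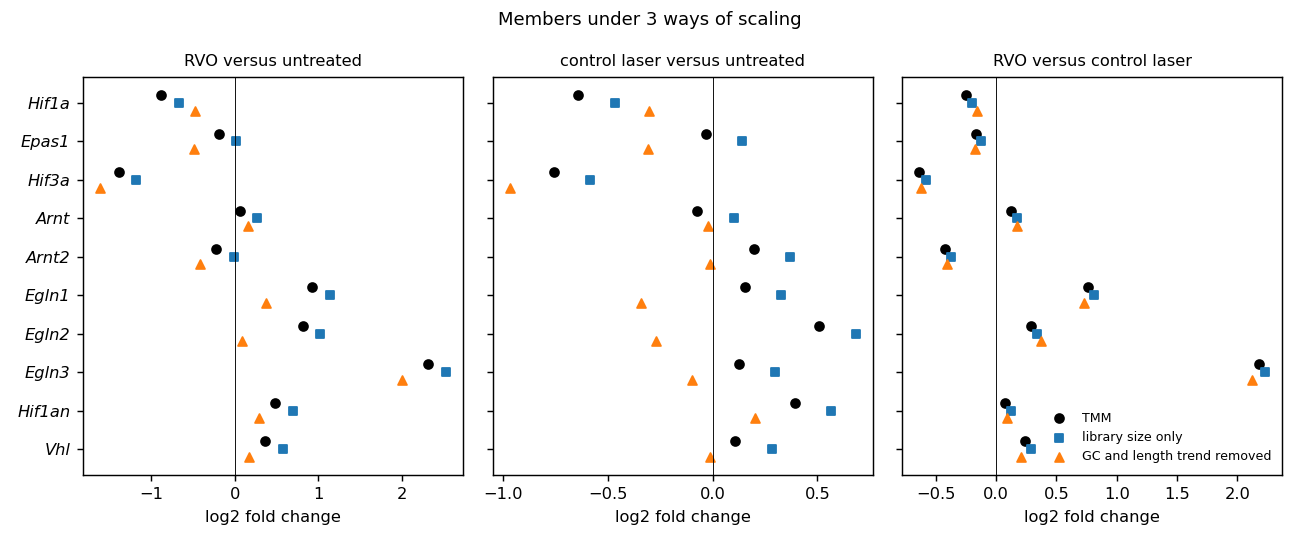
Log2 fold changes of the 10 genes in each comparison with TMM scaling (black circles), library size only (blue squares) and after removal of GC and length trends (orange triangles). Between RVO and control laser the 3 ways lie close together (Egln3 2.18, 2.23 and 2.12), whereas against untreated eyes Egln2 moves from 0.81 to 0.09 when the trends are removed.

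Per length of exon, which allows levels of different genes to be compared, Hif1a was the most abundant of the 10 genes in all groups, with 157 ± 8.26, 99.6 ± 6.39 and 83.8 ± 8.02 CPM per kilobase in untreated, control and RVO samples (SD, n = 3). In untreated eyes it was followed by Epas1 (42.1), Egln1 (31.1), Hif1an (14.9), Vhl (14.3), Egln2 (13.6), Arnt (9.23), Arnt2 (3.24), Egln3 (2.67) and Hif3a (1.36 CPM per kilobase). The samples of Hif1an and Vhl overlapped, as did those of Vhl and Egln2, and all other neighbours were apart. In control eyes the order was the same except that Egln2 (19.1) came before Vhl (15.2 CPM per kilobase), and the only overlapping neighbours were Hif1an (19.3) and Egln2. In RVO eyes Egln1 (58.0 CPM per kilobase) stood above Epas1 (36.1), and Egln3 (12.9) had moved from the ninth to the seventh place, where its samples overlapped with those of both neighbours, Vhl (18) and Arnt (9.40). Hif1an (20.3) and Vhl also overlapped in RVO eyes, and Hif3a remained last with 0.51 CPM per kilobase. These lengths count all exons of a gene, and the middle places depended on that choice. Per length of the longest transcript, Egln3 (12.87) stood below Arnt (17.4) in RVO eyes. In untreated eyes Egln1 was then followed by Egln2, Arnt (17.08), Hif1an (15.91) and Vhl (15.37). In control eyes Egln2 (25.34) then stood above Hif1an (20.63 CPM per kilobase). Hif1a was highest and Hif3a lowest with either length.

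The genes whose profile over the 9 samples was most like that of a given subunit were ranked by the root mean square difference of centred log2 CPM among 11293 genes. For Hif1a these were Camta1 (0.0309), Meis2 (0.0376) and Eps15 (0.0433). For Hif3a they were Traf3ip3 (0.108), Guca1a (0.110) and A330094K24Rik (0.111). The profile of Egln3 was nearest to Slc13a4 (0.246), Ppp1r3b (0.273) and Aldh1l2 (0.316), with Slc13a4 at 6.62, 6.49 and 31.7 CPM in untreated, control and RVO samples (means, n = 3). Epas1 itself varied too little over the samples (SD of 0.13 on the log2 scale) for such a ranking.

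Of 5 lists of genes related to the 10 genes, that of known HIF targets held most of the calls between RVO and control eyes. There, 11 of 44 tested HIF targets were called higher and 0 lower, against 2.7% and 0.634% of all tested genes, and their median log2 change was 0.49. At an unadjusted p under 0.05 in edgeR, 32 were higher and 3 lower, where 7940 of 16874 genes passed in either direction. DESeq2 called 24 higher and 1 lower, where it called 1840 of 18780 genes higher and 2116 lower. Car9, a carbonic anhydrase of the cell surface, rose 11.95-fold (0.674 ± 0.0861 CPM in control, 8.02 ± 2.46 CPM in RVO samples, SD, n = 3), and Adm, the vasodilator adrenomedullin, rose 8.46-fold (edgeR, adjusted p = 0.00455 and 0.00459). Against untreated eyes, 24 of 44 targets were called higher and 1 lower in RVO eyes (median 0.61), where 27.4% and 24.6% of all genes were, and 19 of 43 higher and 7 lower in control eyes (median 0.20), where 27.2% and 25.2% of all genes were. Adm in RVO eyes was 32.3-fold above untreated eyes (adjusted p = 1.06e-05), whereas Vldlr, a lipoprotein receptor, was lower (0.53-fold, adjusted p = 6.14e-05). Car9 had at most 2 reads in each untreated sample. This list was chosen with results of these samples known, and its counts are no independent evidence of a direction.

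The other lists were compared in the same way, and their values against untreated eyes include the GC trend. Of 22 further oxygen-dependent dioxygenases, 7 were called higher and 5 lower in RVO eyes, close to the 27.4% and 24.6% of all genes, and 7 higher and 9 lower in control eyes, where 27.2% and 25.2% of all genes were. The collagen-modifying enzyme Plod3 (2.57-fold), the histone demethylase Kdm6b (2.56-fold) and Plod1 (1.99-fold) rose most in RVO against untreated eyes, and the DNA demethylases Tet1 (0.42-fold) and Tet2 (0.60-fold) and the histone demethylase Kdm4c (0.49-fold) fell most. In RVO against control eyes, P4ha1, a collagen prolyl hydroxylase that is also on the list of HIF targets, and Plod3 were called (1.59-fold and 1.56-fold higher, edgeR adjusted p = 0.00996 and 0.00989), and DESeq2 called 5 higher and 2 lower. Of all genes, edgeR called 2.7% higher and 0.634% lower there, and DESeq2 called 1840 of 18780 higher and 2116 lower.

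Of 6 partners of VHL in its ubiquitin ligase, 0 were called between RVO and control eyes by edgeR or DESeq2, and 1 was higher and 1 lower at an unadjusted p under 0.05. Against untreated eyes, 2 were higher and 2 lower in RVO eyes, namely Elob (1.99-fold) and Ube2m (1.33-fold) higher and Eloc (0.66-fold) and Cul2 (0.76-fold) lower, and control eyes also had 2 called higher and 2 lower. For this list and those that follow, the shares of all genes called higher and lower against untreated eyes were 27.4% and 24.6% in RVO and 27.2% and 25.2% in control eyes. In RVO against control eyes, edgeR called 2.7% of all genes higher and 0.634% lower. There, 7940 of 16874 genes had an unadjusted p under 0.05 in either direction, and DESeq2 called 1840 of 18780 higher and 2116 lower. Elongins B and C, which bind VHL together, differed from untreated eyes in opposite directions, in values not corrected for GC content. In RVO against control eyes, neither was called (log2 0.21 for Elob and -0.19 for Eloc, edgeR adjusted p = 0.101 and 0.072). Of 14 coactivators and protein partners of HIF, the comparison with untreated eyes called 7 higher and 3 lower in RVO eyes and 4 higher and 7 lower in control eyes. In RVO against control eyes, edgeR called 0 of the 14, with 4 higher and 1 lower at an unadjusted p under 0.05, and DESeq2 called 4 higher and 1 lower. Cited4 (4.64-fold), the scaffold protein Rack1 (2.26-fold) and the chaperone Hsp90ab1 (1.58-fold) rose most in RVO against untreated eyes, and Usp33 (0.43-fold), a deubiquitinase, Cited2 (0.49-fold), which competes with HIF for coactivators, and the ubiquitin ligase Siah1a (0.78-fold) fell most. Of 9 other genes of the bHLH-PAS family, to which the HIF subunits belong, RVO eyes had 3 called higher and 2 lower and control eyes 1 higher and 2 lower against untreated eyes. In RVO against control eyes, edgeR called 0 of the 9, with 3 higher and 1 lower at an unadjusted p under 0.05, and DESeq2 called 1 higher and 1 lower. Those called in RVO against untreated eyes were the xenobiotic receptor Ahr (2.74-fold), Npas3 (2.08-fold) and the Ahr repressor Ahrr (1.54-fold) as higher and Npas2 (0.48-fold) and the circadian factor Clock (0.58-fold) as lower.

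**Figure D5:**
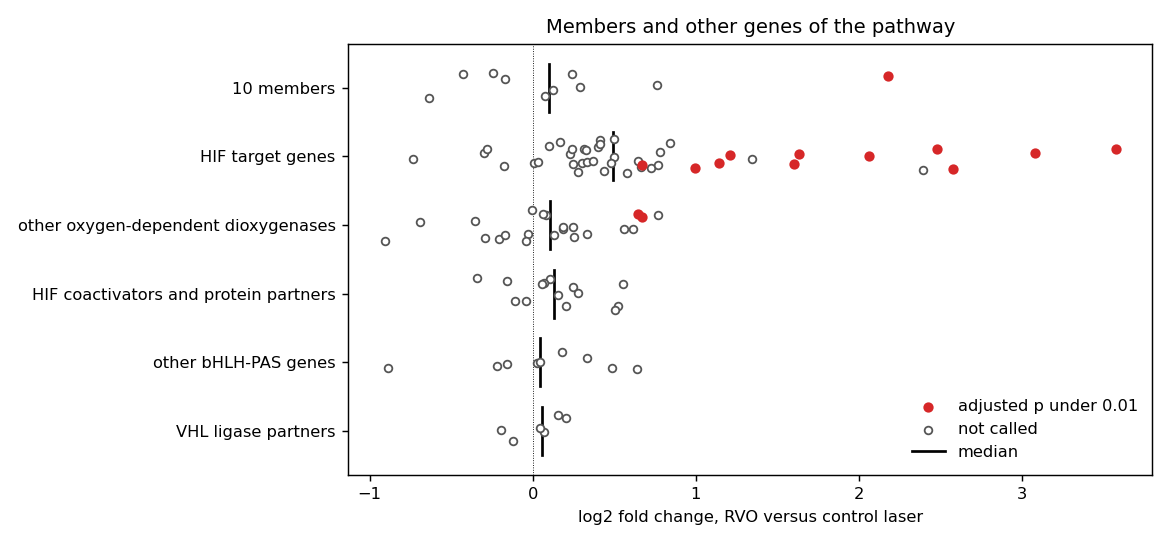
Log2 fold changes between RVO and control laser for the 10 genes and for 5 lists of related genes. Each point is a gene, red points have an adjusted p under 0.01 in edgeR's quasi-likelihood test, and black bars are medians; the called genes are Egln3, 11 HIF targets and 2 other dioxygenases, 1 of them on both lists.

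Markers of other cell types moved along with the groups as well. The summed level of 10 monocyte and macrophage markers was 48.8 to 69.1 CPM in untreated, 81.6 to 99.8 CPM in control and 147 to 166.5 CPM in RVO samples. That of 10 neutrophil markers was 0.547 to 1.21 CPM, 8.24 to 24.3 CPM and 45.6 to 102 CPM, with Cxcr2, Mpo, Elane, Retnlg and Ly6g at 0 in all untreated samples and Elane at 0 in all RVO samples. Microglia markers were at 132 to 202, 78.5 to 94.97 and 47.8 to 88.6 CPM, Mueller glia markers at 5968 to 6283, 5324 to 5832 and 3875 to 5108 CPM, pigment epithelium markers at 578 to 631, 513 to 603 and 403 to 730.2 CPM, and 7 erythroid markers at 14.6 to 15.2, 28.6 to 31.3 and 49.7 to 197 CPM. The monocyte and macrophage, neutrophil and erythroid sums, like Egln3, were highest in RVO samples. These sums were also higher in all control than in all untreated samples, and Egln3 overlapped between these groups. The part of these cells in the values of Egln3, Egln1 and Vhl was not tested.

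Reads of overlapping genes could be shared with Hif1a and Egln2. The antisense gene Gm15283 shares 330 exonic bases with Hif1a and had 2.73 to 4.63 CPM, and Cyp2t4 shares 11 exonic bases with Egln2 and had 1.08 to 1.93 CPM. The processed pseudogene Vhl-ps1 had 0 reads in every sample.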

How the data were processed

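The authors sequenced poly-A mRNA of 9 retina pools (TruSeq Stranded mRNA, 50-base single reads), mapped the reads with STAR 2.5.2b to the mouse genome with the Gencode annotation and deposited raw read counts per gene made with featureCounts (Subread 1.5.1), without normalization and listed by symbol. Whether counting used strand or reads with several matches is not given in the sources used here. It has 48679 rows with names, and 92 of these, spike-in RNAs, had 0 counts throughout.

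For each pair of groups, counts were filtered with filterByExpr, scaled by TMM and tested with the quasi-likelihood test of edgeR 4.0.16 in R 4.3.3, with 3 pools against 3 and Benjamini-Hochberg adjustment over all tested genes (16380, 16066 and 16874). These fits had biological coefficients of variation of 13.8% (RVO and untreated), 7.49% (control and untreated) and 14.4% (RVO and control). The deposited counts are whole reads, and p-values set the difference between groups against the spread between pools. Exon lengths, GC content and positions came from GENCODE vM21 (GRCm38), in which 46372 names matched 1 gene. The table names Elob, Eloc and Ero1a by older symbols, and Hif1aos and Ahsp were not matched. Shares and ratios within samples were compared with exact permutation tests in scipy 1.17.1.

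The 10 genes and the lists of pathway, target and marker genes were chosen with earlier results of these data known. From each list, up to 3 called genes with the largest rise and fall are named for RVO against control and untreated samples. The results of some genes that this rule names are not reported here. Profiles alike were sought for Hif1a, Epas1, Hif3a and Egln3 among genes with a mean of at least 1 CPM and an SD of at least 0.2 (log2 CPM, prior count of 2). Alternatives were median-ratio scaling, library size only, no filter, DESeq2 1.42.0, 1 joint fit of the 9 samples, replicate numbers as block, a threshold of 0.05, removal of GC and length trends and leaving out each sample. The procedure was tested on simulated data.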

Additional observations from a re-analysis of the deposited data

How the results depend on the processing

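Of the single-gene fold changes under the alternatives, 351 kept direction and call, 16 passed the threshold in addition, 14 lost the call and 9 changed sign. Of the gene counts, shares and ratios, 107 kept their reading, while 10 gene counts were larger and 9 smaller. Gene counts with a small change, such as from 2 to 3 called lower, were taken as kept. Shares and ratios were tried with another gene length and without single samples, but not with removal of GC and length trends. For RVO against untreated eyes, the number of the 10 genes called higher was 1 after removal of GC and length trends, where 3245 of 16380 genes were. It was 3 to 5 when 1 sample was left out, and the number called lower was then 2 to 4. Those fits without 1 sample called 3298 to 5436 genes higher and 2710 to 5055 lower over the whole table. For control against untreated eyes, 5 were higher with library size only, where 5902 of 16066 genes were. After removal of the trends, 1 was higher and 5 were lower, where 2439 and 4048 of 16066 genes were. For RVO against control eyes, 2 were higher without a filter, with DESeq2 and in 1 fit of all 9 samples, 4 were higher and 1 lower at a threshold of 0.05, and leaving out 1 sample gave 0 to 3 higher and 0 to 3 lower, with 3 of each without RVO replicate 2, when 2942 genes were called higher and 3315 lower over the whole table. DESeq2 called 24 HIF targets higher between RVO and control eyes where edgeR called 11, and 5 other dioxygenases higher and 2 lower where edgeR called 2 higher and 0 lower. Over all genes, DESeq2 called 1840 of 18780 higher and 2116 lower there, where the main fit called 456 of 16874 higher and 107 lower. The fit without a filter called 1569 of 29742 genes higher and the joint fit of the 9 samples 1832 of 17112.

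Signs changed with library size only for Epas1 in RVO (0.020) and for Epas1 (0.14) and Arnt (0.10) in control against untreated eyes. After removal of the trends, they changed in control against untreated eyes for Arnt2 (-0.012), Egln1 (-0.34), Egln2 (-0.27), Egln3 (-0.10) and Vhl (-0.013), and leaving out 1 sample gave -0.054 to 0.0063 for Epas1. The trends could be removed for 96.8% to 97.0% of genes. The cause of these changes was not tested.

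With the replicate number as a block, 0 of the 10 genes were called between RVO and control eyes, as was no gene of the whole table (7227 had an unadjusted p under 0.05 in edgeR), and Egln3 had a log2 fold change of 2.12 (adjusted p = 0.0314). The deviations of RVO and control samples with the same number correlated with r = -0.13, -0.15 and 0.07 over genes, and the labels do not tie the numbers to the same mice, so the block was not used. Shares and ratios with 3 against 3 samples could not reach a p under 0.1. Counting precision was lowest for Hif3a, with 76 to 152 reads per sample, and for Egln3 in untreated samples, with 87 to 92 reads.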
